A study of Homo sapiens with 18 samples.

Results

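Expression of 33 genes of glucose uptake, glycolysis, lactate handling and glycogen metabolism was followed in 3 leukemia cell lines after knockdown of *SOX11*, which encodes a transcription factor of the SoxC family. The genes were chosen by function with earlier results of these data known, so their shares beside those of all genes only describe the list. They come from 5 steps of the pathway and are 33 of the 26941 genes in the count tables. Of these, 2 carry glucose into the cell, 12 act in the trapping of glucose and in upper glycolysis, 6 in lower glycolysis, 6 in the handling of lactate and pyruvate, and 7 in the building and breakdown of glycogen.

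RNA was sequenced from 18 samples of REH, 697 and RCH-ACV, established cell lines derived from acute lymphoblastic leukemia of B-cell precursors (BCP-ALL). REH represents the E/R subtype, which carries the ETV6-RUNX1 fusion, and 697 and RCH-ACV do not belong to it. In each line, 3 samples had been nucleofected with siRNA against *SOX11* and 3 with a non-specific control siRNA, both at 300 nM, and RNA was taken after 48 h. Such siRNAs are small RNA duplexes that lead to the cutting of an mRNA of matching sequence. The E/R subtype is thus represented by a single line, and a difference between REH and another line cannot be told apart from a difference between subtypes.

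Glycolysis splits glucose into pyruvate with a gain of ATP, and several of its steps can be carried out by more than 1 isozyme, each encoded by its own gene. Glucose enters through facilitative transporters, is trapped by hexokinase, is committed at phosphofructokinase, and leaves the pathway as pyruvate, which is either reduced to lactate and exported or oxidized in mitochondria. Glycogen is a branched store of glucose that is built from UDP-glucose and cut back to glucose 1-phosphate. Leukemic and proliferating lymphoid cells are known for a high use of glucose, and many genes of the pathway are textbook targets of MYC and of the hypoxia-inducible factors.

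Library depth was 7039594 to 16592492 counts over all genes. *SOX11*, the targeted gene, was lower after its siRNA in every line. In REH 53.7 ± 6.83 CPM (counts per 1e6 counts, SD, n = 3) remained of 96.0 ± 2.85 CPM, or 56.0%. The corresponding values were 31.9 ± 0.841 of 59.7 ± 0.492 CPM in 697 (53.4%), and 82.5 ± 3.82 of 131 ± 5.79 CPM in RCH-ACV (63.0%). The groups did not overlap in any line, and the two-sided exact permutation test gave p = 0.1 in each, the smallest value that 3 samples against 3 allow. Of 10 B-lineage markers, 9 had a mean of at least 1 CPM in REH and 10 in 697 and RCH-ACV. The missing marker in REH was *VPREB1*, which encodes a part of the surrogate light chain, at 0 to 0.0951 CPM. The summed B-lineage markers were 7023 to 7249 CPM in control and 7647 to 7739.7 CPM in *SOX11* siRNA samples of REH, and 5026 to 5468 against 4387 to 4657 CPM in 697, while the groups overlapped in RCH-ACV with 5312 to 5526 against 4323 to 5400.3 CPM. Of 5 T-lineage and 4 erythroid markers 0 reached 1 CPM in any line, and of 5 myeloid markers 1 did in each line, *MPO* at 7.42 to 14.9 CPM in REH and *CSF1R* at 2.33 to 4.66 CPM in 697 and 23.1 to 30.5 CPM in RCH-ACV. The summed myeloid markers of REH were 14.1 to 15.7 CPM in control and 8.75 to 9.96 CPM in *SOX11* siRNA samples. The part of these markers in the results was not tested, and in bulk RNA fewer cells of a type and less RNA per cell cannot be told apart. Some libraries stood apart from others of their group. The third *SOX11* siRNA library of RCH-ACV had a chi-square per degree of freedom of 3.47 and 4.49 against the first and the second, which had 1.33 against each other, and the first control and the third *SOX11* siRNA library of 697 also stood apart, with values of 3.57 to 5.18.

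After *SOX11* siRNA most pathway genes changed in RCH-ACV, a few in REH, and none passed the test in 697. In RCH-ACV, 19 of the 31 pathway genes that could be tested rose and 1 fell (edgeR quasi-likelihood test, adjusted p-value under 0.05 over all genes), or 61.3% and 3.23%, while over all 12963 genes tested in that line 3.59% rose and 3.92% fell. In REH 1 rose and 4 fell of 31, or 3.23% and 12.9%, against 2.64% and 2.01% of 12787 genes. This split depended on the scaling, being 3 higher and 3 lower with RLE size factors, where *TPI1* and *ENO2* were gained and *LDHB* was lost. The count in REH was 2 without the third control, 3 without the first *SOX11* siRNA library and 8, of which 4 were higher and 4 lower, without the first control. The shares of all genes called in these fits were 2.29%, 2.56% and 4.04%. In 697 edgeR called 0 of 31, against 0.0822% higher and 0.477% lower of 12169 genes. In that line 2 pathway genes had an unadjusted p-value under 0.05, for which no share over all genes is given, and DESeq2 also called 0. The median log2 fold change of the pathway genes was 0.25 in RCH-ACV, -0.03 in REH and 0.05 in 697, while the median of all genes lay at 0.005, -0.002 and -0.004. Within RCH-ACV, 10 of 11 tested genes of upper glycolysis rose, 3 of 6 of lower glycolysis, 1 of 2 glucose transporters, 3 of 6 of lactate and pyruvate handling, where 1 more fell, and 2 of 6 of glycogen metabolism. Together the 33 genes took 1.38% ± 0.0268 (SD, n = 3) of all counts in control RCH-ACV cells and 1.55% ± 0.0648 with *SOX11* siRNA, while the shares were 1.11% ± 0.00951 and 1.08% ± 0.028 in REH and 1.42% ± 0.0139 and 1.45% ± 0.0478 in 697. Without the third *SOX11* siRNA library of RCH-ACV, the test called 26 of 31 genes, 23 higher and 3 lower, and all 20 calls of the full set were among them. Over all genes, 18.9% were then called.

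**Figure D1:**
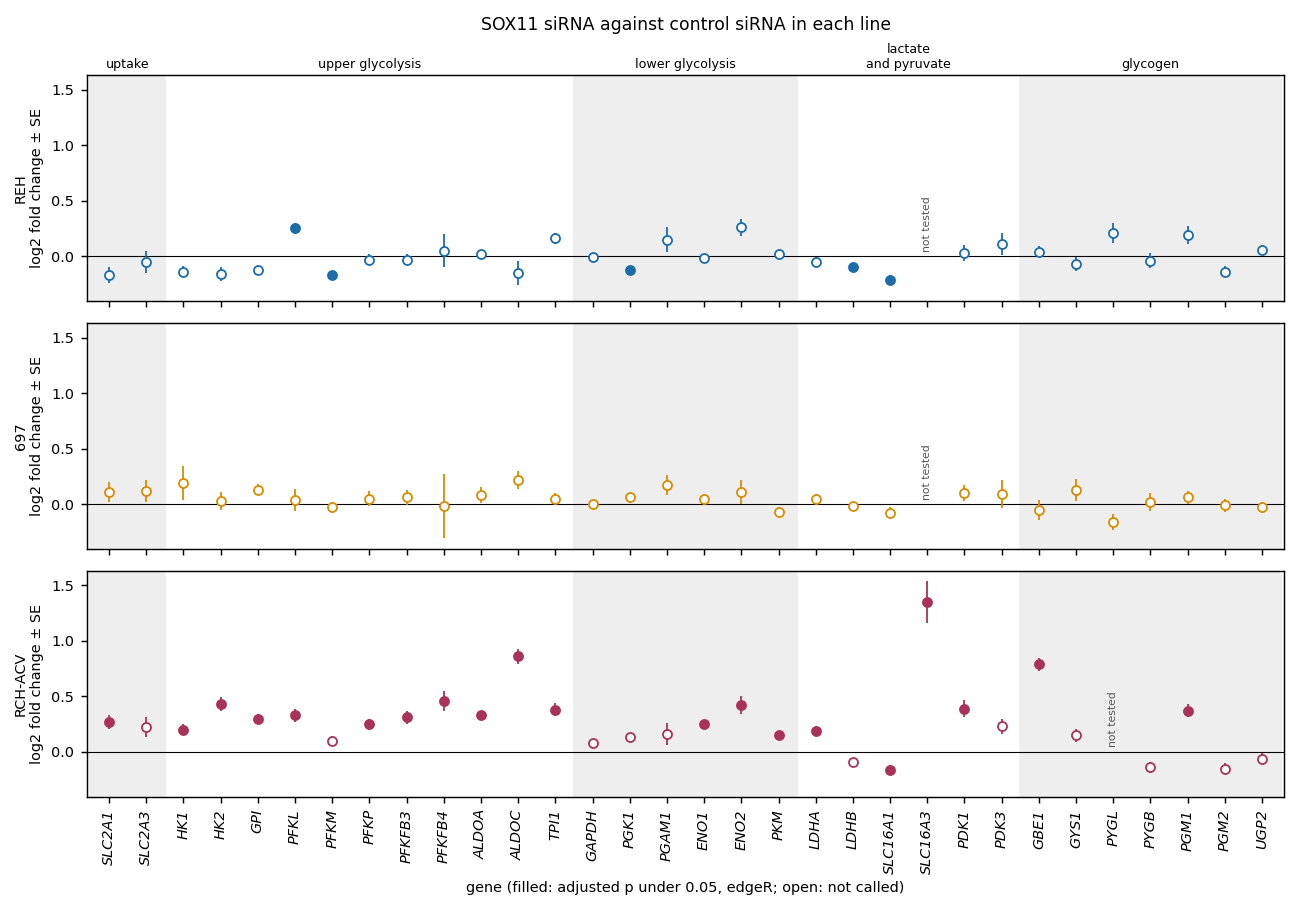
log2 fold change of each pathway gene, *SOX11* siRNA against control siRNA, in REH, 697 and RCH-ACV, grouped by step, with bars for the standard error and filled points for an edgeR adjusted p-value under 0.05 (*PFKFB2*, at 0 counts, is left out). In RCH-ACV 19 genes rose and 1 fell, in REH 1 rose and 4 fell, and in 697 none of 31 was called.

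The lines also differed in the level of the pathway genes in the samples with control siRNA. All 32 genes tested differed between the control samples of the 3 lines at an adjusted p-value under 0.05, which says little by itself, since 88.7% of the 14026 genes tested did. Differences beyond 2-fold were found for 11 genes between 697 and REH, 10 of them higher in 697, where 31.2% of all genes passed the same rule. Between RCH-ACV and REH there were 9, of which 8 were higher in RCH-ACV, against 26.4% of all genes, and between RCH-ACV and 697 there were 4, against 21% of all genes. The shares of the pathway genes, 34.4%, 28.1% and 12.5%, were thus near or below those of all genes. *SLC16A3* and *PYGL* entered this test only through the lines where they are high. Both count among the 9 and among the 4, so these counts and their shares rest in part on that entry. Levels of different genes are compared below only per length, as reads per kilobase of transcript and per 1e6 counts (RPKM), and an isozyme's share is its part of the summed RPKM of its family.

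**Figure D2:**
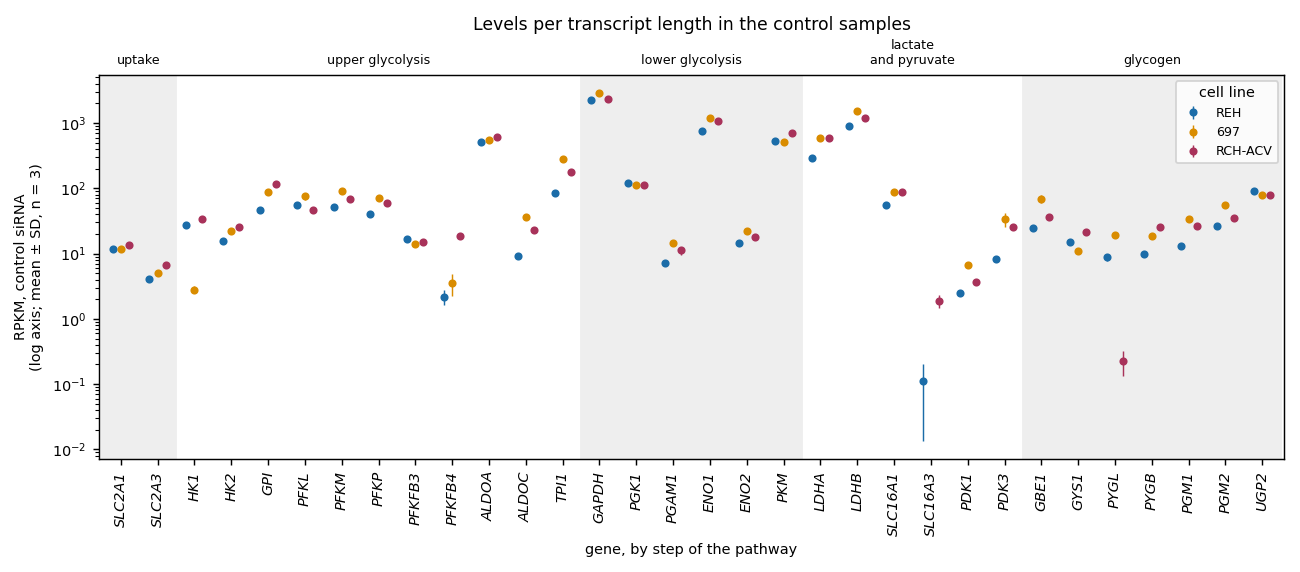
Control level of each pathway gene in RPKM on a log axis, as the mean of 3 control samples with bars for the SD, in REH, 697 and RCH-ACV, ordered by step. *GAPDH* was highest at 2253 to 2876 RPKM, *HK1* stood apart in 697 at 2.81 RPKM, *PYGL* in RCH-ACV at 0.227 RPKM, and *SLC16A3*, at 0 in 697, has no point there.

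Of the 2 glucose transporters, *SLC2A1*, which encodes GLUT1, had a higher level than *SLC2A3*, which encodes GLUT3, in every line. *SLC2A1* lay at 11.9 ± 0.0626 RPKM (SD, n = 3) in REH, 11.7 ± 1.21 RPKM in 697 and 13.7 ± 0.572 RPKM in RCH-ACV, and *SLC2A3* at 4.07 ± 0.164, 5.09 ± 0.27 and 6.78 ± 0.673 RPKM. The share of *SLC2A1* was 74.5% ± 0.666, 69.6% ± 3.28 and 66.9% ± 1.32. Its level in REH and 697 did not differ beyond the spread of the samples (log2 difference of 697 from REH -0.03 ± 0.08, SE, edgeR adjusted p = 0.756). With *SOX11* siRNA, *SLC2A1* in RCH-ACV went from 48.1, 44.2 and 46.5 CPM to 56.8, 56.9 and 53.4 CPM. All 3 *SOX11* siRNA samples lay above all controls, and the rise was 0.27 ± 0.06 on the log2 scale (edgeR adjusted p = 0.0169). This call was lost without the first or second *SOX11* siRNA library or the second or the third control, with adjusted p-values of 0.0615 to 0.0967. The log2 fold change of *SLC2A1* was -0.17 ± 0.07 in REH and 0.11 ± 0.09 in 697, and that of *SLC2A3* lay between -0.05 and 0.22 in the 3 lines, none of them past the threshold.

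Hexokinase phosphorylates glucose and keeps it in the cell, and the 3 lines used its isozymes differently. *HK1* encodes the widely expressed form and *HK2* a form known to be raised in many tumors. *HK1* lay at 27.2 ± 0.891 RPKM in REH and 34.0 ± 1.57 RPKM in RCH-ACV, but at 2.81 ± 0.338 RPKM in 697, which was 9.69-fold below REH (log2 difference -3.28 ± 0.08, edgeR adjusted p = 4.92e-22). *HK2* varied less, with 15.6 ± 1.09 RPKM in REH, 22.3 ± 1.51 RPKM in 697 and 25.2 ± 0.71 RPKM in RCH-ACV. *HK2* therefore made up 88.8% of hexokinase RPKM in 697, 36.5% in REH and 42.6% in RCH-ACV. Without scaling by length *HK2* led in RCH-ACV too, with 53.7%, so that the leading form of that line depends on the length used.

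*HK1* rose in RCH-ACV from 126, 116 and 125 CPM to 139, 141 and 143 CPM, with no overlap of the groups (log2 fold change 0.20 ± 0.05, edgeR adjusted p = 0.0181). The call of *HK1* was lost without the first or second *SOX11* siRNA library or the first or second control, with adjusted p-values of 0.0562 to 0.111. *HK2* rose from 144, 137 and 143 CPM to 177, 183 and 215 CPM in the same line. The groups were apart and the third *SOX11* siRNA library was the highest, and the log2 fold change of *HK2* was 0.43 ± 0.06 (edgeR adjusted p = 0.000366), or 0.35 without that library. In REH *HK2* was at 82.5, 94.6 and 86.6 CPM in control and 76.2, 82.5 and 76.7 CPM in *SOX11* siRNA samples, and in 697 at 135, 123 and 118 CPM against 122, 144 and 120.4 CPM. In these lines the groups overlapped, and neither change passed the test (log2 fold change -0.16 ± 0.06 in REH and 0.03 ± 0.08 in 697).

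*GPI* encodes glucose-6-phosphate isomerase, which turns glucose 6-phosphate into fructose 6-phosphate. Its control level was 46.2 RPKM in REH, 88.1 RPKM in 697 and 118 RPKM in RCH-ACV, 2.54-fold higher in RCH-ACV than in REH (log2 difference 1.34 ± 0.05, edgeR adjusted p = 7.59e-19). In RCH-ACV it went from 497, 495 and 464 CPM to 594, 624 and 572 CPM with *SOX11* siRNA. All *SOX11* siRNA samples were above all controls (log2 fold change 0.30 ± 0.04, edgeR adjusted p = 0.000382). *GPI* was at 179, 195 and 199 CPM in control and at 173, 181 and 169 CPM in *SOX11* siRNA samples of REH, which overlapped, and at 353, 368 and 369.8 CPM against 392, 416 and 391 CPM in 697, which did not. In 697 its unadjusted p-value in the edgeR test was 0.0327 and its adjusted p-value 0.538 (log2 fold change 0.13 ± 0.05).

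Phosphofructokinase, the committed step of glycolysis, is built from liver, muscle and platelet type subunits, encoded by *PFKL*, *PFKM* and *PFKP*, and all 3 were expressed in all lines. *PFKL* had the highest share in REH with 37.8%, and *PFKM* in 697 and RCH-ACV with 38.6% and 39.0%. The smallest share was 26.3%, of *PFKL* in RCH-ACV. Knockdown was followed by a rise of *PFKL* in both REH and RCH-ACV. In REH it went from 157, 167 and 162 CPM to 209, 190.1 and 177 CPM, with every *SOX11* siRNA sample above every control (log2 fold change 0.25 ± 0.05, edgeR adjusted p = 0.00224). In RCH-ACV it went from 137, 126 and 138 CPM to 167, 181 and 154 CPM, again without overlap (0.33 ± 0.06, edgeR adjusted p = 0.00225). In 697 its log2 fold change was 0.04 ± 0.10.

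*PFKP* rose in RCH-ACV by a small margin, from 164, 149 and 163 CPM to 187, 199.6 and 179.8 CPM. The groups did not overlap, and the log2 fold change was 0.25 ± 0.05 (edgeR adjusted p = 0.00685), with adjusted p-values of 0.0606 without the second *SOX11* siRNA library and 0.057 without the second control. *PFKM* fell in REH from 156, 156 and 159.7 CPM to 141, 135 and 139 CPM, all 3 below all controls (log2 fold change -0.17 ± 0.04, edgeR adjusted p = 0.0142), with adjusted p-values of 0.0733 without the second *SOX11* siRNA library and 0.0877 without the third control. It was the single tested gene of upper glycolysis that was not called in RCH-ACV, where its log2 fold change was 0.10 ± 0.04 (edgeR adjusted p = 0.165).

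The PFKFB enzymes make and remove fructose 2,6-bisphosphate, the strongest activator of phosphofructokinase. *PFKFB3* lay close together in all lines, at 16.7, 14.1 and 15.0 RPKM in REH, 697 and RCH-ACV, whereas *PFKFB4* was at 2.2 ± 0.544, 3.54 ± 1.31 and 18.5 ± 1.74 RPKM. *PFKFB4* was 8.23-fold higher in RCH-ACV than in REH (log2 difference 3.04 ± 0.19, edgeR adjusted p = 1.39e-13) and 5.16-fold higher than in 697, and it made up 55.2% of the 2 in RCH-ACV against 11.6% in REH and 19.7% in 697. Without scaling by length its share in RCH-ACV was 49.0%. *PFKFB2* was listed at 0 counts in all 18 samples, and whether its transcript was counted as intended could not be settled, so its level is not known.

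In RCH-ACV *PFKFB3* went from 67.7, 67.7 and 66.0 CPM to 81.1, 87.1 and 80.3 CPM, and *PFKFB4* from 69.8, 58.0 and 66.4 CPM to 73.7, 90.8 and 103 CPM. Neither gene's groups overlapped, but the *SOX11* siRNA samples of *PFKFB4* were spread widely, with the lowest close to the highest control. The log2 fold change was 0.31 ± 0.06 for *PFKFB3* (edgeR adjusted p = 0.00278) and 0.46 ± 0.09 for *PFKFB4* (edgeR adjusted p = 0.0054), the latter 0.37 without the third *SOX11* siRNA library and not called without the second control (adjusted p = 0.0626). In REH and 697 their log2 fold changes lay between -0.03 and 0.06, and none was called.

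Aldolase splits fructose 1,6-bisphosphate. *ALDOA*, the muscle type form, lay at 507, 543 and 613 RPKM in REH, 697 and RCH-ACV, and *ALDOC*, the brain type form, at 9.22, 36.3 and 22.9 RPKM. *ALDOC* was thus a minor form with 1.78%, 6.28% and 3.6% of aldolase RPKM, and it was 3.88-fold higher in 697 than in REH (log2 difference 1.96 ± 0.09, edgeR adjusted p = 9.98e-17). In RCH-ACV *ALDOC* went from 37.1, 37.9 and 35.4 CPM to 61.4, 72.5 and 65.3 CPM. The groups were far apart, with a rise of 81.9% (log2 fold change 0.86 ± 0.07, edgeR adjusted p = 3.04e-06), and its share of aldolase RPKM went to 5.09% ± 0.27. *ALDOC* was at 15.3, 15.8 and 13.4 CPM in control and 12.4, 13.2 and 14.6 CPM in *SOX11* siRNA samples of REH, which overlapped. In 697 it was at 62.8, 56.7 and 55.5 CPM against 70.9, 70.6 and 63.5 CPM, which did not overlap, with an unadjusted p-value of 0.0155 and an adjusted p-value of 0.402 in the edgeR test.

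The major form moved as well in RCH-ACV. *ALDOA* went from 1044, 977 and 995 CPM to 1242, 1357 and 1185 CPM, without overlap (log2 fold change 0.33 ± 0.04, edgeR adjusted p = 0.000271). *TPI1*, which encodes the triose phosphate isomerase that interconverts the products of aldolase, went from 253, 259 and 223 CPM to 317, 344 and 295 CPM, also without overlap (0.38 ± 0.06, edgeR adjusted p = 0.000891). In REH *ALDOA* had a log2 fold change of 0.02 ± 0.04 and *TPI1* of 0.16 ± 0.05 (edgeR adjusted p = 0.0523), just short of the threshold. Control *TPI1* was 3.25-fold higher in 697 and 2.11-fold higher in RCH-ACV than in REH.

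**Figure D3:**
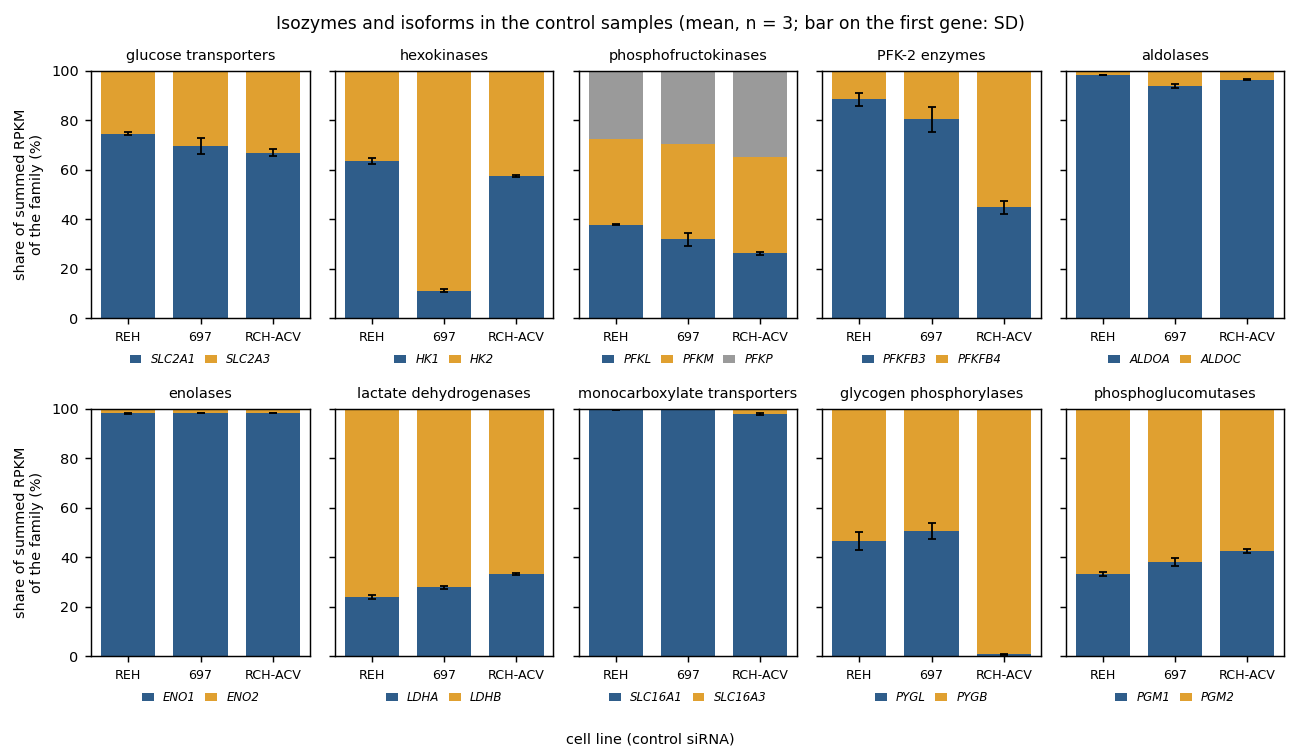
Share of each isozyme in the summed RPKM of its family, in percent, as stacked bars of the mean of 3 control samples of REH, 697 and RCH-ACV, with the SD on the first gene of each family. *HK1* took 63.5% of hexokinase in REH and 57.4% in RCH-ACV but 11.2% in 697, *PFKFB4* took 55.2% of its pair in RCH-ACV, and *PYGL* 0.856% of its pair there.

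Lower glycolysis, in which ATP and pyruvate are made, held the gene with the highest level of the set. This was *GAPDH*, the glyceraldehyde-3-phosphate dehydrogenase gene, at 2253, 2876 and 2348 RPKM in REH, 697 and RCH-ACV, and *ENO1*, the ubiquitous enolase, lay at 766, 1211 and 1074 RPKM. *PGK1*, the phosphoglycerate kinase gene, lay at 121, 112 and 113 RPKM, and *PGAM1*, the phosphoglycerate mutase gene, was low at 7.1, 14.3 and 11.2 RPKM. In the annotation *GAPDH* has 65 named pseudogenes, *PGAM1* 13, *LDHA* 6, *PKM* 5, and *ENO1* and *TPI1* 4 each. *SLC2A3* and *LDHB* have 3 each, *ALDOA* and *PGK1* 2 each, and *HK2*, *SLC16A1* and *PDK1* 1 each. The authors kept reads that aligned to up to 2 locations and discarded the others, so the levels and shares of these genes are uncertain. *ENO2*, the neuronal enolase, took 1.89%, 1.77% and 1.67% of enolase RPKM.

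*ENO1* rose in RCH-ACV from 1977, 1880.1 and 1879.9 CPM to 2207, 2427 and 2206 CPM (log2 fold change 0.25 ± 0.04, edgeR adjusted p = 0.000661). All *SOX11* siRNA samples lay above all controls. In REH *ENO1* was at 1386, 1354 and 1354 CPM against 1389.9, 1358 and 1258 CPM, and in 697 at 2211, 2102 and 2159.5 CPM against 2293, 2319 and 2139 CPM, with overlap in both lines. *ENO2* rose in RCH-ACV from 42.0, 42.9 and 40.5 CPM to 50.2, 61.1 and 55.0 CPM, without overlap (0.42 ± 0.08, edgeR adjusted p = 0.00223), and its log2 fold change in REH was 0.26 ± 0.08 (edgeR adjusted p = 0.051).

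*PKM* encodes pyruvate kinase, whose M1 and M2 forms come from alternative exons. Its control level was 525, 510.4 and 695 RPKM. In RCH-ACV *PKM* rose from 1636, 1573 and 1597 CPM to 1747, 1864 and 1744 CPM, apart from the controls by a small margin (log2 fold change 0.15 ± 0.03, edgeR adjusted p = 0.0106). This call was lost without the second *SOX11* siRNA library or the second or the third control, with adjusted p-values of 0.0547 to 0.0786. The count of the M2 transcript exceeded that of the M1 transcript, with which it shares most exons, by 5.22% ± 0.217 in control REH, 5.93% ± 0.464 in 697 and 5.7% ± 0.462 in RCH-ACV, and by 5.23% ± 0.182, 6.09% ± 0.235 and 5.46% ± 0.399 with *SOX11* siRNA. These excesses differed by less than the spread of the samples between control and knockdown, and since the transcripts overlap, they do not give the share of each form.

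*PGK1* fell in REH from 591, 579 and 578 CPM to 524, 549 and 528 CPM, all below the controls (log2 fold change -0.12 ± 0.03, edgeR adjusted p = 0.0325). The call was lost without the first or the third *SOX11* siRNA library or the first or the third control, with adjusted p-values of 0.0725 to 0.172. In RCH-ACV its log2 fold change was 0.13 ± 0.04 (edgeR adjusted p = 0.06). *GAPDH* had log2 fold changes of -0.01, 0.00 and 0.08 in REH, 697 and RCH-ACV, and *PGAM1* of 0.15, 0.17 and 0.16, none of them called.

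Lactate dehydrogenase interconverts pyruvate and lactate. *LDHB*, the heart type subunit, made up 76.0%, 72.1% and 66.6% of its RPKM in REH, 697 and RCH-ACV, and *LDHA*, the muscle type subunit, 24.0% ± 0.743, 27.9% ± 0.582 and 33.4% ± 0.351. *LDHA* was 2.03-fold higher in 697 and 2.06-fold higher in RCH-ACV than in REH, and did not differ beyond the spread between those lines (log2 difference of RCH-ACV from 697 0.02 ± 0.04, edgeR adjusted p = 0.656). In RCH-ACV *LDHA* rose from 1314, 1358 and 1332 CPM to 1511, 1606 and 1456 CPM, with no overlap (log2 fold change 0.19 ± 0.04, edgeR adjusted p = 0.00491), and its share went to 37.9% ± 0.482. In REH *LDHB* fell from 1209, 1195 and 1161 CPM to 1088, 1091 and 1126 CPM, without overlap (-0.10 ± 0.03, edgeR adjusted p = 0.0484), and in RCH-ACV its log2 fold change was -0.09 ± 0.03 (edgeR adjusted p = 0.101). The call in REH was lost without any of the 6 libraries but the third *SOX11* siRNA library, with adjusted p-values of 0.0945 to 0.201.

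*SLC16A1*, which encodes the lactate and pyruvate transporter MCT1, was the single gene of the set called lower in RCH-ACV, and it also fell in REH. It went from 207, 206 and 211 CPM to 169, 182 and 184 CPM in REH (log2 fold change -0.21 ± 0.04, edgeR adjusted p = 0.00221), and from 332, 335 and 339 CPM to 299.8, 298 and 305 CPM in RCH-ACV (-0.16 ± 0.04, edgeR adjusted p = 0.0169). The groups were apart in both lines. In RCH-ACV the call was lost without any of the controls or the first or second *SOX11* siRNA library, with adjusted p-values of 0.0696 to 0.0878. In 697, where it went from a mean of 328 to 312 CPM, its log2 fold change was -0.08 ± 0.05 (edgeR adjusted p = 0.72). *SLC16A3*, which encodes the lactate exporter MCT4 (chr17:80175810-80219005, hg19, plus strand), rose in RCH-ACV. It went from 6.05, 3.89 and 4.89 CPM to 9.09, 15.0 and 12.5 CPM, a rise of 154% (1.35 ± 0.19, edgeR adjusted p = 0.000382), with every *SOX11* siRNA sample above every control. Its share of the RPKM of both transporters went from 2.08% to 5.53% ± 1.3, so *SLC16A1* remained the main form.

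*SLC16A3* was close to the limit of detection in the other lines. The 3 controls of 697 had 0 counts, which makes it at least 11.6-fold higher in control RCH-ACV at a floor of 3 counts per library, and the 3 controls of REH had 5, 0 and 3 counts. *PDK1* and *PDK3* encode kinases that switch off pyruvate dehydrogenase and so limit the oxidation of pyruvate. In RCH-ACV *PDK1* rose from 54.7, 52.1 and 46.7 CPM to 58.2, 67.7 and 74.9 CPM, without overlap but with the *SOX11* siRNA samples widely spread (0.39 ± 0.08, edgeR adjusted p = 0.00741). Without the third *SOX11* siRNA library its log2 fold change was 0.32, and the call was lost without the third control (0.33, adjusted p = 0.0602). The log2 fold change of *PDK3* there was 0.23 ± 0.07 (edgeR adjusted p = 0.0677). Which of the 2 had the higher level depended on the transcript length used, so no share is given. *PDK1* was 2.75-fold and *PDK3* 4.21-fold higher in control 697 than in REH.

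In the glycogen step, *GBE1*, which encodes the branching enzyme that adds side chains to glycogen, had the largest log2 fold change in RCH-ACV. Its control level was 24.5, 69.9 and 37.0 RPKM in REH, 697 and RCH-ACV, 2.84-fold higher in 697 than in REH. In RCH-ACV it went from 113, 108 and 105 CPM to 181, 209 and 172 CPM, a rise of 72.9% with the groups far apart (log2 fold change 0.79 ± 0.06, edgeR adjusted p = 2.46e-06). In REH it was at 74.7, 71.0 and 70.6 CPM against 68.9, 76.5 and 75.2 CPM, and in 697 at 242, 188 and 187 CPM against 215, 199.7 and 183 CPM, with overlap in both (log2 fold changes 0.04 ± 0.05 and -0.05 ± 0.09).

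*PGM1* and *PGM2* encode phosphoglucomutases, and PGM1 is the main enzyme that links glucose 1-phosphate with glucose 6-phosphate. In RCH-ACV *PGM1* rose from 62.3, 61.6 and 60.3 CPM to 79.7, 81.4 and 77.3 CPM, with tight groups that did not overlap (0.37 ± 0.06, edgeR adjusted p = 0.000554). The log2 fold change of *PGM2* was -0.15 ± 0.05 (edgeR adjusted p = 0.0786). *PGM1* accordingly went from 42.6% ± 0.693 to 51.4% ± 1.29 of the RPKM of both. The log2 fold changes of *PGM1* were 0.19 ± 0.08 in REH and 0.06 ± 0.06 in 697, neither called.

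Glycogen phosphorylase releases glucose 1-phosphate, and the lines differed in which form they held. *PYGL*, the liver type, had 4, 4 and 8 counts in the controls of RCH-ACV, or 0.227 RPKM, against 8.76 RPKM in REH and 19.3 RPKM in 697, a description without a test, since the gene entered the fit through the other lines. *PYGB*, the brain type, was 2.58-fold higher in RCH-ACV than in REH, at 26.0 against 10.0 RPKM, and at 18.8 RPKM in 697. *PYGL* made up 46.6% of the pair in REH, 50.6% in 697 (41.1% without scaling by length) and 0.856% in RCH-ACV. *GYS1*, the muscle type glycogen synthase, was at 15.2, 10.8 and 21.4 RPKM and *UGP2*, which makes UDP-glucose, at 92.2, 80.0 and 79.9 RPKM. None of *GYS1*, *PYGB* and *UGP2* passed the test in any line, with log2 fold changes between -0.14 and 0.15, nor did *PYGL* in REH or 697, where its log2 fold changes were 0.21 ± 0.09 and -0.16 ± 0.07, and it was too low to be tested in RCH-ACV.

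Whether the effect of *SOX11* siRNA itself differed between the lines was tested in a fit over all 18 samples with an siRNA by cell line interaction. The test called *HK2*, *GPI*, *ALDOC*, *ENO1* and *GBE1*, 5 of 32 genes or 15.6%, against 0.734% of all 14026 genes. The edgeR adjusted p-value was 0.00711 for *HK2*, 0.00369 for *GPI*, 0.000146 for *ALDOC*, 0.0372 for *ENO1* and 0.00022 for *GBE1*. An unadjusted p-value under 0.05 was found for 19 of the 32, a count for which no share over all genes is given. Each of the 5 had its highest log2 fold change in RCH-ACV. Comparing pairs of lines, which share samples with each other and with the tests above, 8 effects were higher in RCH-ACV than in REH and 0 lower, against 0.642% of all genes called.

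For *ALDOC* the effect in RCH-ACV exceeded that in REH by 1.01 ± 0.13 on the log2 scale (edgeR adjusted p = 0.000174), for *GBE1* by 0.76 ± 0.12 (0.00177), for *HK2* by 0.60 ± 0.10 (0.00359), for *GPI* by 0.42 ± 0.07 (0.00177) and for *ENO1* by 0.28 ± 0.06 (0.019). Beyond the 5, *SLC2A1* differed by 0.44 ± 0.10 (edgeR adjusted p = 0.0405), *HK1* by 0.34 ± 0.08 (0.0437) and *PFKM* by 0.28 ± 0.06 (0.0282). The effect in RCH-ACV exceeded that in 697 for 2 genes, against 0.0856% of all genes, *ALDOC* by 0.64 ± 0.11 (edgeR adjusted p = 0.00717) and *GBE1* by 0.84 ± 0.11 (0.000654). Between 697 and REH edgeR called 0 of 32, against 0.271% of all genes, and DESeq2 was not run for this difference. Of the 32, 8 had an unadjusted p-value under 0.05, again without a share over all genes to set beside it. The count for RCH-ACV against REH rested on single libraries, being 4 without the first control or the third *SOX11* siRNA library of REH, or without the second *SOX11* siRNA library or the second or the third control of RCH-ACV, and 5 without the first *SOX11* siRNA library or the second or the third control of REH or the first control of RCH-ACV. *SLC2A1*, *HK1* and *PFKM* were each lost without 10 to 12 of the 18 libraries, with adjusted p-values of 0.0505 to 0.161. The interaction of *ENO1* was lost without 10 of them, with adjusted p-values of 0.0503 to 0.187. The interaction test called 10 genes without the first control of 697, 9 without the third *SOX11* siRNA library of RCH-ACV and 8 without the third *SOX11* siRNA library of 697. The share of all genes called rose too, from 0.734% to 1.25%, 1.26% and 0.804%.

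**Figure D4:**
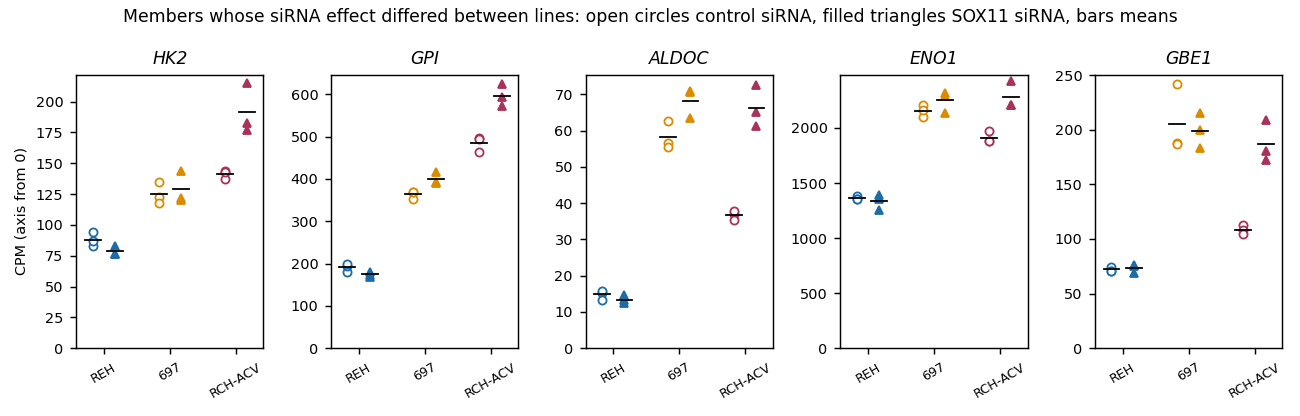
CPM of *HK2*, *GPI*, *ALDOC*, *ENO1* and *GBE1* in each of the 18 samples, control siRNA beside *SOX11* siRNA in REH, 697 and RCH-ACV, with a line at the mean of each group of 3. In RCH-ACV every *SOX11* siRNA sample lies above every control sample, from 105 to 113 CPM up to 172 to 209 CPM for *GBE1*, while in REH and 697 the groups of *GBE1* overlap.

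The knockdown itself gave no difference between the lines that passed the same test. The log2 fold change of *SOX11* was -0.83 ± 0.06 in REH, -0.91 ± 0.07 in 697 and -0.67 ± 0.05 in RCH-ACV. Its interaction had an edgeR adjusted p-value of 0.538 and an unadjusted one of 0.0641. The fall in RCH-ACV was smaller than that in 697 by 0.24 ± 0.10 on the log2 scale (edgeR unadjusted p = 0.0268, adjusted p = 0.624). It was smaller than that in REH by 0.16 ± 0.09 (edgeR unadjusted p = 0.0992), so an equal knockdown is not shown. In the control samples *SOX11* was 2.2-fold higher in RCH-ACV than in 697. *MYC*, a known activator of glycolytic genes, was at 232 CPM in REH, 812 CPM in 697 and 612 CPM in RCH-ACV controls. It fell in REH (log2 fold change -0.25 ± 0.04, edgeR adjusted p = 0.000229), and its log2 fold changes were -0.08 ± 0.04 in 697 and 0.09 ± 0.04 in RCH-ACV, neither of them called. The interaction of *MYC* was called (edgeR adjusted p = 0.00489), with an effect higher in RCH-ACV than in REH by 0.34 ± 0.06 on the log2 scale (edgeR adjusted p = 0.00183). The part of *MYC* in the results was not tested.

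Fitted as 1 effect common to the 3 lines, 8 pathway genes were higher and 1 was lower with *SOX11* siRNA of 32 tested, against 3.31% higher and 4.83% lower of all genes. *SLC16A1* was the lower gene (log2 fold change -0.15 ± 0.03, edgeR adjusted p = 0.00029), and *SLC16A3* (1.27 ± 0.21, 0.000251), *PGM1* (0.21 ± 0.04, 0.00172), *ENO2* (0.26 ± 0.06, 0.00437), *TPI1* (0.19 ± 0.04, 0.00445) and *PFKL* (0.20 ± 0.05, 0.00877) were higher. *ALDOC* (0.39 ± 0.09, 0.00484), *ALDOA* (0.14 ± 0.04, 0.0322) and *PDK1* (0.18 ± 0.05, 0.0371) also passed, though *ALDOC* differed between the lines as given above. The value of *SLC16A3* is its effect in RCH-ACV again, since it had 0 to 6 counts in every library of REH and 697, which leaves 7 higher genes with counts in all 3 lines, and DESeq2 did not call it (adjusted p = 0.211). The call of *ALDOA* was lost without any of 7 libraries, with adjusted p-values of 0.0504 to 0.0822, and that of *PDK1* without any of 9, with 0.0519 to 0.0979. With a replicate block the adjusted p-values were 0.0856 for *ALDOA* and 0.0965 for *PDK1*. Without the third *SOX11* siRNA library of 697, 14 pathway genes were called, while the share of all genes called went from 8.14% to 9.59%.

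The promoters of the 5 genes called in the interaction test are shown. A rise in RCH-ACV is not particular to these genes, since 19 pathway genes rose there. The sequences are the 250 bases before the RefSeq transcription start on GRCh38.p14, written 5′ to 3′ along the gene. In them the words ACGTG and GCGTG are in capitals on either strand (so also CACGT and CACGC). These words are the core of the hypoxia response element, and where CACGTG occurs it holds ACGTG on both strands and counts as 2. *HK2* (chr2:74833877-74834126, plus strand) has 3 copies, the nearest 43 bases before the start, *GPI* (chr19:34364742-34364991, plus) 1, *ALDOC* (chr17:28576896-28577145, minus) 5, *ENO1* (chr1:8878687-8878936, minus) 2 and *GBE1* (chr3:81761646-81761895, minus) 2.
HK2: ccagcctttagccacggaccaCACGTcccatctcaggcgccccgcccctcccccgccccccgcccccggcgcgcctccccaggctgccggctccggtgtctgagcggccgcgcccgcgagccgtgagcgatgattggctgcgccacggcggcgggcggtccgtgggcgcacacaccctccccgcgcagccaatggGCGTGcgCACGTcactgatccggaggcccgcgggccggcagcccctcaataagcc
GPI: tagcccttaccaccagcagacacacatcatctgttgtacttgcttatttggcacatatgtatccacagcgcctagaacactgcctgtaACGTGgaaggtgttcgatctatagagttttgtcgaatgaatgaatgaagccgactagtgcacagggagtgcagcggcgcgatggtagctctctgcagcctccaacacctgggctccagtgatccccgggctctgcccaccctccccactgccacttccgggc
ALDOC: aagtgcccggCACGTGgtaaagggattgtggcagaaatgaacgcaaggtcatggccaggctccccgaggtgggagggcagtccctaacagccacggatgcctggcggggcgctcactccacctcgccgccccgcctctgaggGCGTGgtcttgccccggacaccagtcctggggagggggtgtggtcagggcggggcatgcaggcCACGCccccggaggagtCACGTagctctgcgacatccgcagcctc
ENO1: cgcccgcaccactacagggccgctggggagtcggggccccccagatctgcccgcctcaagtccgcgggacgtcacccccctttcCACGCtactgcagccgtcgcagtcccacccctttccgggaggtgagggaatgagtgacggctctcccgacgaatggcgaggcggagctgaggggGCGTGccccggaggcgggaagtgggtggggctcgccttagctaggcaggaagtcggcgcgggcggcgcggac
GBE1: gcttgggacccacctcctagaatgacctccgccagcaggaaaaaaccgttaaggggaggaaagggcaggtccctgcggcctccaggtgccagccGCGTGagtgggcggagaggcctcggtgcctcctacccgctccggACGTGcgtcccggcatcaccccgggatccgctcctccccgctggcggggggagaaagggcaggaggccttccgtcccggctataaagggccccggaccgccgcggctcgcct

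Such words are common. Counted over 250 bases before and 50 after the start, they were found in 48.4% of 27305 RefSeq promoters and in 63.5% of the 10147 promoters of genes tested in RCH-ACV. Of the 33 pathway genes 30 had a promoter in the table, and 21 of these (70.0%) held a word, as did 13 of the 19 that were higher in RCH-ACV (68.4%). The E-box CACGTG, a word bound by MYC and its partners, was in 4 of 30 (13.3%), against 7.43% of all promoters and 10.3% of those of tested genes. The SOX-type words ACAAAG and ACAATG, on either strand, were in 5 of 30 (16.7%), against 24.6% and 15.9%. The genes lie on different chromosomes in hg19, *HK2* at chr2:75061254-75120486, *GPI* at chr19:34850385-34893318, *ALDOC* at chr17:26900133-26903966, *ENO1* at chr1:8921059-8939249 and *GBE1* at chr3:81538854-81810796.

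Other genes of these steps and of related routes, also listed with earlier results of these data known, were called at shares near those of all genes. Of 73 further genes of uptake, glycolysis, pyruvate entry, the pentose phosphate pathway, glycogen metabolism, glucose release and glucose sensing, 3 of the 58 tested in RCH-ACV rose and 3 fell (5.17% each), against 3.59% and 3.92% of all genes. Those that rose were *GAA*, the lysosomal enzyme that breaks down glycogen (34.0 ± 1.96 to 41.8 ± 3.57 CPM, log2 fold change 0.29 ± 0.08, edgeR adjusted p = 0.0355), *PPP1R3E*, a subunit that targets a phosphatase to glycogen (0.42 ± 0.12, 0.0395), and *PCK2*, the mitochondrial phosphoenolpyruvate carboxykinase (0.27 ± 0.07, 0.0171). Those that fell were *SLC2A5*, a fructose transporter (-0.26 ± 0.07, 0.0396), *BPGM*, which makes 2,3-bisphosphoglycerate (-0.30 ± 0.07, 0.0171), and *PDP1*, the phosphatase that turns pyruvate dehydrogenase on (-0.31 ± 0.09, 0.0367). Each of these 6 calls was lost without at least 3 of the 6 libraries of that line. In REH 1 of 53 rose (1.89%, against 2.64% of all genes), *MLXIP*, which encodes the glucose-sensing factor MondoA (269.8 ± 12.4 to 308 ± 5.22 CPM, 0.20 ± 0.04, edgeR adjusted p = 0.00139), and in 697 edgeR called 0 of 52, with 0 at an unadjusted p-value under 0.05, against 0.0822% higher and 0.477% lower of all genes. *HIF1A*, which encodes the subunit of the hypoxia-inducible factor that oxygen controls, was at 225 ± 2.93 CPM in control and 227 ± 13.5 CPM in *SOX11* siRNA samples of RCH-ACV (log2 fold change 0.01 ± 0.05). These are RNA levels and do not give the amount of the protein, and the part of this factor in the results was not tested.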

How the data were processed

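The 18 RNA samples comprised 6 groups of 3, a *SOX11* siRNA and a control siRNA group for each of the 3 lines. The authors checked the reads with FastQC 0.10.1, aligned them to hg19 with STAR 2.5.3a and counted them with HOMER on 50678 RefSeq transcripts, and they had dropped any read with over 2 alignment sites. What the authors deposited are these raw counts, not normalized, as 1 table per line, and the tables hold 0 columns of other samples. The study describes the replicates as independent biological replicates.

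Transcripts were matched to symbols (98.0% of transcripts, 99.0% of counts), and the transcript with the highest total stood for its gene, giving 26941 genes. The total per sample was 7039594 to 16592492 counts, so that a floor of 3 counts lay at 0.181 to 0.426 CPM, which covers counting error only. CPM used TMM-scaled library sizes. RPKM used the length of the canonical transcript in GENCODE lifted to hg19, because no lengths are in the tables. Counts do not use strand as far as the sources used here say, so overlapping genes cannot be told apart.

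Each line was fitted with edgeR 4.0.16 (R 4.3.3, filterByExpr, TMM, quasi-likelihood F-test, two-sided, Benjamini-Hochberg over all genes tested, called under 0.05). The 18 samples were fitted together for the common effect, the interaction and control levels, where differences beyond 1 on the log2 scale were counted. Errors are SD over 3 samples or SE of the fit. All 33 genes are accounted for by step. For a gene called in a line every sample's value in that line is given, and for those called in the interaction the values in all 3 lines. The genes and lists were chosen with earlier results of these data known. Alternatives were RLE factors, library size alone, no filter, CPM above 1 in at least 3 samples, 1 fit over the 18 samples, DESeq2 1.42.0, a replicate block, another choice of transcript, an adjusted p-value under 0.01, other lengths, and leaving out each sample. The fits were tested on simulated data. The main fits used no block, since the study names none. The labels share replicate numbers, but same-numbered samples did not deviate together (correlations -0.15 to 0.156). Further steps used pandas 2.3.3, numpy 2.4.6, scipy 1.17.1 and matplotlib 3.10.9 under Python 3.11.15. Promoters are from RefSeq on GRCh38.p14. The marker of 1 further list is not reported here.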

Additional observations from a re-analysis of the deposited data

Results flagged for a closer look

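The following results were picked out because a test of the difference between 2 lines, or of the siRNA by cell line interaction, passed the threshold. In the comparison of RCH-ACV with REH, the log2 fold change after *SOX11* siRNA was higher in RCH-ACV by 1.01 for *ALDOC*, 0.76 for *GBE1*, 0.60 for *HK2*, 0.44 for *SLC2A1*, 0.42 for *GPI*, 0.34 for *HK1*, 0.28 for *PFKM* and 0.28 for *ENO1*. In the comparison of RCH-ACV with 697, it was higher in RCH-ACV by 0.84 for *GBE1* and 0.64 for *ALDOC*. Over the 3 lines, the interaction had edgeR adjusted p-values of 0.000146 for *ALDOC*, 0.00022 for *GBE1*, 0.00369 for *GPI*, 0.00711 for *HK2* and 0.0372 for *ENO1*. The groups of 3 samples were too small for a test of single samples that lie far from the others.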

How the results depend on the processing

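No call of a named gene turned its direction, and 175 of 1070 values of 56 single-gene results no longer passed the threshold under an alternative. *SOX11* itself remained called in 45 of 45. The calls of *ALDOA*, *ALDOC*, *ENO1*, *ENO2*, *GBE1*, *GPI*, *HK2*, *LDHA*, *PFKFB3*, *PFKL*, *PGM1*, *SLC16A3* and *TPI1* in RCH-ACV passed in every fit run and without each sample, as did those of *ALDOC*, *GBE1*, *GPI* and *HK2* in the interaction. In REH this held for *SLC16A1* alone, and *PFKL* was not called in 1 fit over the 18 samples (adjusted p = 0.126).

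The 5 calls in REH became 2 in 1 fit over the 18 samples, 3 with a replicate block, 3 with DESeq2 and 2 at an adjusted p-value under 0.01. Without a filter on low counts the common effect had 14 calls in place of 9, the interaction 12 in place of 5, and the difference between RCH-ACV and REH 13 in place of 8, that between RCH-ACV and 697 6 in place of 2, and that between 697 and REH 1 in place of 0. In the same order, 6.86%, 1.36%, 1.18%, 0.399% and 0.468% of all genes were then called, in place of 8.14%, 0.734%, 0.642%, 0.0856% and 0.271%. For RCH-ACV against REH, RLE factors gave 5, the replicate block 4 and an adjusted p-value under 0.01 gave 4. The cause was not tested. DESeq2 gave 7 calls for the interaction, with 1.06% of all genes called, and lost *SLC16A3* and *ALDOC* from the common effect (adjusted p = 0.211 and 0.0546). The replicate block gave 20 calls in RCH-ACV, 0 in 697, 7 for the common effect and 4 for the interaction, where *ENO1* was lost (adjusted p = 0.12). Library size alone moved the median of all genes between 697 and REH to -0.155 on the log2 scale and gave 8 control-level differences in place of 11, without *LDHA*, *PGAM1* and *PGM2*.

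Leaving out each sample in turn gave 2 to 8 calls in REH, 0 to 0 in 697, 14 to 26 in RCH-ACV, 7 to 14 for the common effect, 4 to 10 for the interaction, 4 to 12 for RCH-ACV against REH, 2 to 3 for RCH-ACV against 697 and 0 to 0 for 697 against REH. Control levels gave 31 to 32 calls over the lines, 9 to 12 between 697 and REH, 9 to 9 between RCH-ACV and REH and 4 to 5 between RCH-ACV and 697. The log2 fold change of *SOX11* lay between -0.93 and -0.74 (REH), -0.93 and -0.89 (697) or -0.71 and -0.64 (RCH-ACV).

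The 68 isozyme shares were taken again without scaling by length and with the longest GENCODE transcript. Of these 136 values, 92 moved by more than the spread of the samples. In a pair of genes the shares move in opposite directions, so a shift counts for both. The leading form changed in 6 of 33 groups without scaling by length. The planned use of the longest RefSeq transcript counted was not run, since its lengths were not used here, and the longest GENCODE transcript was chosen after seeing the data. *SLC16A3* in 697 and REH and *PYGL* in RCH-ACV had too few counts to be tested.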
